A study of Mus musculus with 72 samples.

Results

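Npas4 is a neuron-specific transcription factor of the bHLH-PAS family, and its row and those of its annotated transcripts were followed through every library of a study of mouse hippocampus. The gene is 1 of 55401 in the gene table, and its 3 annotated transcripts are among the 119414 of the transcript table. It was chosen by name, as a gene of neuronal activity, with earlier results of these data known. Bulk messenger RNA had been sequenced from 2 regions of the hippocampus, its dorsal (DH) and its ventral (VH) part, in male mice whose labels read C57BL/6NJ or C57BL/6J, a pair of closely related inbred substrains. The groups were fear conditioning with a shock and a cue (Shock_Cue), the cue without the shock (Cue), both taken 30 minutes afterwards, and mice taken directly from the home cage (HomeCage). Each of the 12 groups of region, strain label and condition held 6 libraries. No age, transgene or drug is given in the labels, and separate animals for the 6 libraries of a group are not stated there. The p-values therefore reflect spread among libraries, which may be technical.

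Npas4 messenger RNA appears rapidly and briefly when calcium enters a depolarised neuron through L-type channels and NMDA receptors, and unlike Fos it is little induced by growth factors alone. The protein binds DNA as a dimer with ARNT or ARNT2, and among the genes it is known to control in mouse neurons is Bdnf, which encodes a neurotrophic factor. In mouse hippocampus it is known for shaping inhibitory synapses onto excitatory neurons and for a role in contextual fear memory. The comparisons asked whether its level differed between conditions, between regions and between strain labels.

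Library totals were 30330382 to 56258370 gene counts, of which mitochondrially encoded genes took 5.599% to 9.44%. Npas4 itself had 301 to 1086 counts per library. The strain labels went against known differences between these substrains. Nnt, which is disrupted in C57BL/6J, averaged 20.3 ± 1.15 CPM (the count divided by the library total and scaled) in the 36 libraries labelled 6NJ and 38.0 ± 1.87 CPM in the 36 labelled 6J (SD), and Gabra2, which is low in C57BL/6J, averaged 120.1 ± 15.7 CPM under label 6NJ and 267.5 ± 35.4 CPM under label 6J. Strain directions are therefore given between labels only. Codes such as 35C name 1 DH and 1 VH library each, and all codes with the same number fall in a single strain label and condition. In 6 codes, all labelled 6J, Lcn2, an acute-phase protein of stressed brain tissue, was above 2 CPM in both regions: 4 were in the Cue groups and 2 in the HomeCage groups. Results that depend on these codes are given with and without them.

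Npas4 (ENSMUSG00000045903) lies on the minus strand of GRCm38 at chr19:4984355-4990316, and no other gene of the GENCODE vM21 annotation overlaps it. The coding transcript Npas4-201 has 8 exons and is 3622 bases long. Npas4-202, of 3791 bases, is annotated as a retained intron form, in which exon 4 runs through introns 4 and 5 of Npas4-201 (chr19:4987888-4988074 and chr19:4987451-4987777). Npas4-203, of 2453 bases, is annotated as a target of nonsense-mediated decay and skips exon 5, at chr19:4987778-4987887.

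Among the sequences that can tie the gene to calcium signalling is the promoter. The cAMP response element bound by CREB is the best known promoter motif of activity-induced genes. The RefSeq window of 250 bases before and 50 after the Npas4 start (GRCm38.p6, chr19:4989922-4990221, minus strand) was searched on both strands. It held 2 short cAMP response motifs (TGACG, or CGTCA on the other strand), which begin 179 and 169 bases before the RefSeq start, and no full element (TGACGTCA). GENCODE starts Npas4-201 345 bases further upstream, so both short motifs fall in its exon 1, in the 5′ untranslated part. Nearer the RefSeq start was a TATA-like stretch. The same motifs are shown for 5 of the 10 genes whose library-to-library deviations were most like those of Npas4, described further on. The windows of Tob2 and Kcnj2, which are also among the 10, held neither motif. Fos encodes a subunit of the AP-1 factor, Dusp1 a phosphatase of MAP kinases, Btg2 and Tob1 related antiproliferative proteins that act on messenger RNA decay, and Nr4a1 an orphan nuclear receptor. Short motifs, or the letters of a full element, are in capitals, and in the TATA-like stretch the capitals mark that stretch.
Npas4 short motifs, chr19:4990130-4990157, minus strand: cgttcgaCGTCAcgggaTGACGtcggaa
Npas4 TATA-like stretch, chr19:4989983-4990008, minus strand: gtcaggagcTATATAAGgcggatcga
Fos, chr12:85473812-85473839, plus strand: agttccgcccagTGACGtaggaagtcca
Dusp1, chr17:26508598-26508625, minus strand: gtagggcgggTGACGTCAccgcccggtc
Btg2, chr1:134079304-134079331, minus strand: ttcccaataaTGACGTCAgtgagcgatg
Nr4a1, chr15:101266794-101266821, plus strand: cccctctccatgCGTCAcggagcgctta
Tob1, chr11:94211346-94211373, plus strand: agggcgggactgTGACGcgagcggcgcg

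Of all 32851 RefSeq promoter windows of the mouse, 20.8% held at least 1 short motif, 5.01% held 2 or more and 1.79% held a full element. Among 33 other immediate early genes, 26 had a window, and 18 of these had a window with a short motif. The element TCGTG, bound by NPAS4 dimers, had no match in the Npas4 window and was in 5269 of all windows. The CArG box of serum response factor had no match there either, against 1.63% of windows. A match is a description of letters, and no match says only that these letters are not in this window.

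Npas4 was higher after either exposure than in the home cage in DH, by 1.31-fold in Shock_Cue and 1.36-fold in Cue, and no such difference passed in VH when the strain labels were averaged. In DH of mice labelled 6NJ the level ran from 14.8 to 22.2 CPM with a median of 20.2 in Shock_Cue, from 16.9 to 22.6 with a median of 21.2 in Cue, and from 13.0 to 22.2 with a median of 13.6 in HomeCage. In DH of mice labelled 6J it ran from 19.3 to 25.7 CPM with a median of 22.1 in Shock_Cue, from 18.4 to 29.4 with a median of 21.7 in Cue, and from 12.7 to 24.02 with a median of 14.2 in HomeCage. The groups overlapped, with 2 home-cage libraries under each label inside the range of the exposed ones, but under each strain label all 6 Shock_Cue and all 6 Cue libraries lay above the median of the home cage.

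With the strain labels averaged, Npas4 in DH rose by 0.39 ± 0.103 on the log2 scale in Shock_Cue against HomeCage, which is 1.31-fold (95% CI 1.13 to 1.51; adjusted p = 0.0133, edgeR's quasi-likelihood test with Benjamini-Hochberg adjustment over 19647 genes). The DH difference of Cue minus HomeCage was 0.45 ± 0.103, or 1.36-fold (1.18 to 1.58; adjusted p = 0.00352, edgeR). Of all genes tested, 5.52% were called higher in the first of these comparisons and 7.45% in the second. Under a single strain label the DH differences did not pass. They were 0.34 ± 0.146 in Shock_Cue labelled 6NJ (adjusted p = 0.214), 0.44 ± 0.146 in Shock_Cue labelled 6J (0.126), 0.43 ± 0.146 in Cue labelled 6NJ (0.134) and 0.47 ± 0.146 in Cue labelled 6J (0.0517), all by edgeR. Both DH calls were lost without the 6 codes of high Lcn2, where the values were 0.31 (adjusted p = 0.0608) in Shock_Cue and 0.26 (0.304) in Cue by edgeR. Each held in all 24 fits that left out 1 library of the groups compared.

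**Figure D1:**
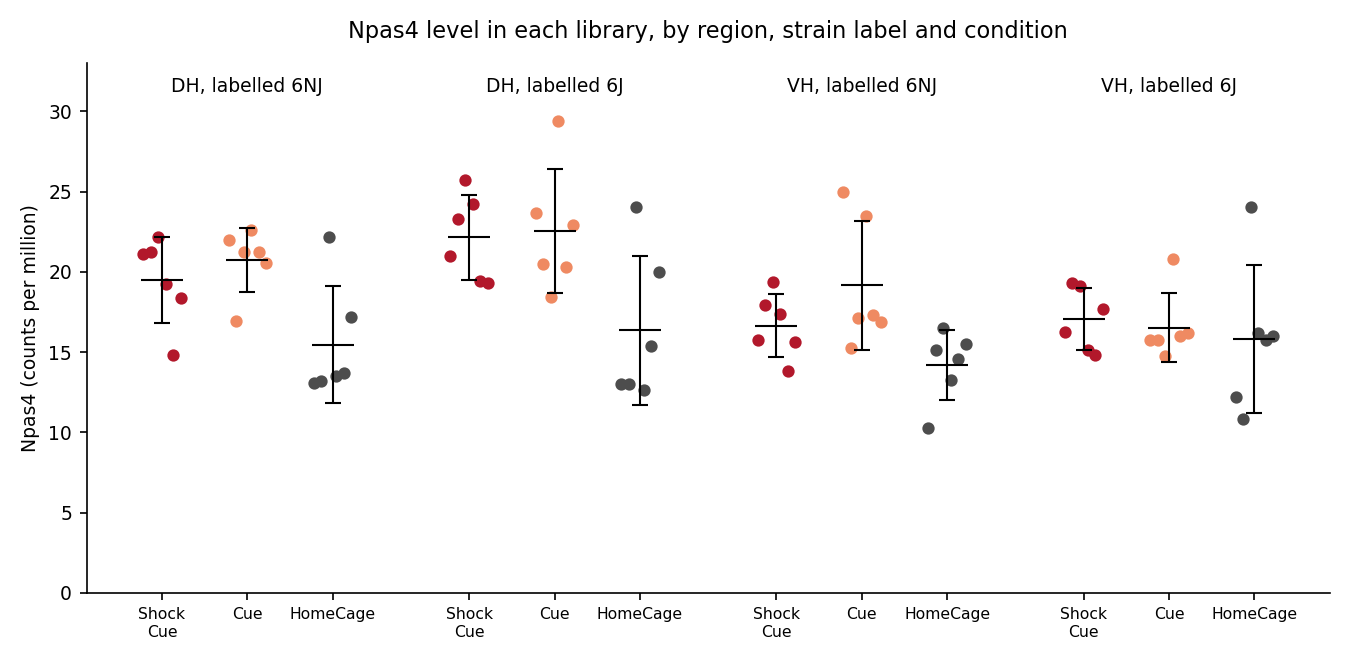
Npas4 in CPM in every library (points), with the mean and SD of each group of 6 (black bars), for DH and VH, strain label and condition. In DH every exposed library lies above the home-cage median of its strain label, while 4 HomeCage libraries of DH, at 17.2 and 22.2 CPM labelled 6NJ and at 20.01 and 24.02 CPM labelled 6J, lie inside the range of the exposed ones of their label.

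In VH the exposed and home-cage medians of Npas4 were closer under label 6J than under label 6NJ. In VH labelled 6NJ the level ran from 13.8 to 19.4 CPM with a median of 16.6 in Shock_Cue, from 15.2 to 24.98 with a median of 17.2 in Cue, and from 10.3 to 16.5 with a median of 14.8 in HomeCage. In VH labelled 6J it ran from 14.8 to 19.3 CPM with a median of 16.98 in Shock_Cue, from 14.7 to 20.8 with a median of 15.9 in Cue, and from 10.8 to 24.03 with a median of 15.9 in HomeCage. Under label 6NJ, 5 of 6 Cue libraries exceeded the highest home-cage library, and under label 6J none did. The mitochondrial share of counts was 6.15% to 7.13% in VH Cue and 6.43% to 9.44% in VH HomeCage labelled 6NJ, and 6.15% to 7.36% and 7.33% to 9.34% labelled 6J, and its part in the VH values was not tested.

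The VH difference that passed was Cue minus HomeCage labelled 6NJ, at 0.43 ± 0.144 on the log2 scale (adjusted p = 0.0457, edgeR). In that comparison 6.97% of genes were called higher. Leaving out 1 library ended the call in 5 of 12 fits: without Cue 38A (0.34, adjusted p = 0.136), Cue 40A (0.36, 0.114), HomeCage 41A (0.35, 0.148), HomeCage 42A (0.41, 0.0863) or HomeCage 42B (0.43, 0.0847), by edgeR. Under label 6J the VH differences were 0.10 ± 0.143 in Shock_Cue and 0.06 ± 0.143 in Cue. Averaged over labels they were 0.16 ± 0.102 in Shock_Cue (adjusted p = 0.27) and 0.25 ± 0.101 in Cue (adjusted p = 0.0631, edgeR). The response was not shown to differ between strain labels in VH (Cue minus HomeCage, 6NJ minus 6J 0.36 ± 0.203, 95% CI −0.05 to 0.78, adjusted p = 1 in edgeR) or between regions (DH minus VH 0.22 ± 0.147 for Shock_Cue, adjusted p = 0.613, and 0.20 ± 0.147 for Cue, adjusted p = 0.829, edgeR).

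No difference between Shock_Cue and Cue was detectable. Shock_Cue minus Cue was −0.06 ± 0.102 in DH (95% CI −0.27 to 0.15; adjusted p = 0.877) and −0.08 ± 0.101 in VH (−0.29 to 0.12; adjusted p = 0.846) by edgeR, and the upper ends of these intervals are 1.11-fold in DH and 1.09-fold in VH. No strain difference passed either. Over the 3 conditions, 6NJ minus 6J was −0.13 ± 0.084 in DH (edgeR adjusted p = 0.331). The VH value was 0.0077 ± 0.083 (edgeR adjusted p = 0.969).

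In DH and in VH, the coding transcript Npas4-201 was higher after either exposure than under HomeCage. Estimated counts from kallisto, which shares a read among the transcripts it fits, summed over the 3 transcripts to between 0.967 and 1.02 times the gene count in every library. Npas4-201 was given 50.9% to 80.6% of them in DH and 36.4% to 87.8% in VH. In DH, Npas4-201 ran from 9.34 to 18.1 CPM with a median of 13.2 in the 12 Shock_Cue libraries, from 11.1 to 17.1 with a median of 12.2 in the 12 Cue libraries, and from 6.502 to 11.4 with a median of 8.37 in the 12 HomeCage libraries. All 12 Shock_Cue and all 12 Cue libraries lay above the home-cage median, and 9 and 8 of them lay above the highest home-cage library. In VH it ran from 9.01 to 14.2 CPM with a median of 11.1 in Shock_Cue, from 8.36 to 13.7 with a median of 11.4 in Cue, and from 5.03 to 11.9 with a median of 8.68 in HomeCage. There, 12 of 12 Shock_Cue libraries and 11 of 12 Cue libraries were above the home-cage median.

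Averaged over strain labels, Npas4-201 rose in all 4 comparisons with the home cage. In DH the log2 difference was 0.63 ± 0.102 in Shock_Cue (adjusted p = 0.000295) and 0.60 ± 0.102 in Cue (adjusted p = 0.000443) by edgeR over 56523 transcripts. In VH it was 0.43 ± 0.098 in Shock_Cue (adjusted p = 0.00892) and 0.40 ± 0.098 in Cue (adjusted p = 0.00648) by edgeR over 55754 transcripts. The share of transcripts called in either direction was 2.79% and 3.59% in DH and 4.12% and 13.4% in VH, for Shock_Cue and Cue in that order. Without the codes of high Lcn2, the Shock_Cue calls held in DH (0.59, adjusted p = 0.00224) and VH (0.38, 0.0445), and the Cue calls did not (0.50, 0.0697, in DH and 0.40, 0.0954, in VH; edgeR). Under a single label, 3 of the 8 differences of Npas4-201 from the home cage passed: Shock_Cue labelled 6NJ in DH (0.63, adjusted p = 0.026), Cue labelled 6J in DH (0.60, 0.0291) and Cue labelled 6NJ in VH (0.61, 0.0197). The others were 0.62 in DH Shock_Cue labelled 6J (adjusted p = 0.0515), 0.59 in DH Cue labelled 6NJ (0.0611), 0.52 in VH Shock_Cue labelled 6NJ (0.0607), and 0.34 and 0.20 in VH Shock_Cue and Cue labelled 6J (0.362 and 0.505), all by edgeR. Of the 3 that passed, Cue labelled 6J in DH was lost without the codes of high Lcn2 (0.41, adjusted p = 0.917, edgeR). The calls labelled 6NJ held there, at 0.63 (adjusted p = 0.0267) in DH Shock_Cue and 0.61 (0.0235) in VH Cue, by edgeR.

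**Figure D2:**
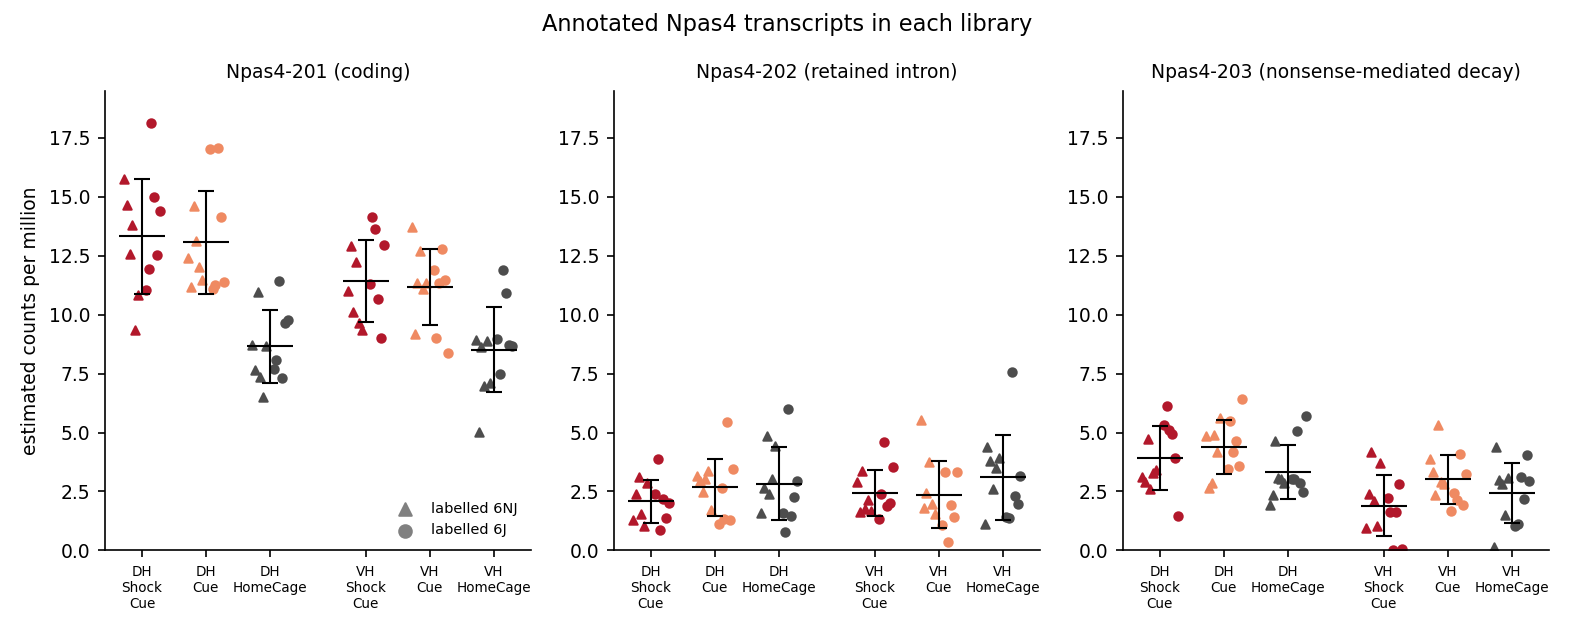
Estimated CPM of the 3 annotated Npas4 transcripts in every library, by region and condition, with triangles for label 6NJ, circles for label 6J and black bars for the mean and SD of 12 libraries. Npas4-201 is higher in both exposed conditions than in the home cage, while Npas4-202 and Npas4-203 overlap across conditions, and the lowest Npas4-203 value, in VH Shock_Cue, is 0.

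The other transcripts did not pass in any comparison with the home cage. Npas4-202 averaged 2.08 ± 0.905 CPM in Shock_Cue, 2.67 ± 1.22 CPM in Cue and 2.83 ± 1.54 CPM in HomeCage in DH (SD, n = 12 each), and 2.44 ± 0.977, 2.37 ± 1.40 and 3.10 ± 1.78 CPM in the same order in VH. Its log2 differences from the home cage, averaged over labels, were −0.42 ± 0.292 in Shock_Cue and −0.07 ± 0.291 in Cue in DH, and −0.34 ± 0.314 and −0.42 ± 0.314 in VH. Npas4-203 averaged 3.91 ± 1.352, 4.402 ± 1.14 and 3.33 ± 1.15 CPM in DH and 1.90 ± 1.30, 3.01 ± 1.04 and 2.45 ± 1.28 CPM in VH, for Shock_Cue, Cue and HomeCage. Its lowest library, in VH Shock_Cue labelled 6J, was listed at 0.

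The retained intron form took a smaller share of the Npas4 reads in the exposed libraries, in 3 of 4 comparisons with the home cage. In DH, Npas4-202 took 10.8% ± 4.30 of the Npas4 estimate in Shock_Cue and 13.0% ± 4.76 in Cue, against 18.2% ± 6.5 in HomeCage (SD, n = 12 each). In VH it took 15.3% ± 5.11 in Shock_Cue and 13.8% ± 6.59 in Cue, against 20.9% ± 7.82 in HomeCage. The difference from the home cage was −7.39 ± 2.14 percentage points in DH Shock_Cue (adjusted p = 0.0239), −5.16 ± 2.18 in DH Cue (0.0453), −5.57 ± 2.69 in VH Shock_Cue (0.0718) and −7.11 ± 2.95 in VH Cue (0.0453), by a two-sided permutation test within strain labels with 100000 resamples, adjusted over 8 comparisons of shares. The share of Npas4-201 was higher by 9.61 ± 3.21 points in DH Shock_Cue (adjusted p = 0.0325) and 10.3 ± 4.51 points in VH Shock_Cue (0.0453), while the Cue differences of 5.53 ± 3.02 and 6.15 ± 4.80 points did not pass this permutation test. Without the codes of high Lcn2, all 8 comparisons passed, with adjusted p between 0.00432 and 0.0315 by permutation. These are shares of reads and not of molecules, and this test was chosen after the levels had been seen.

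**Figure D3:**
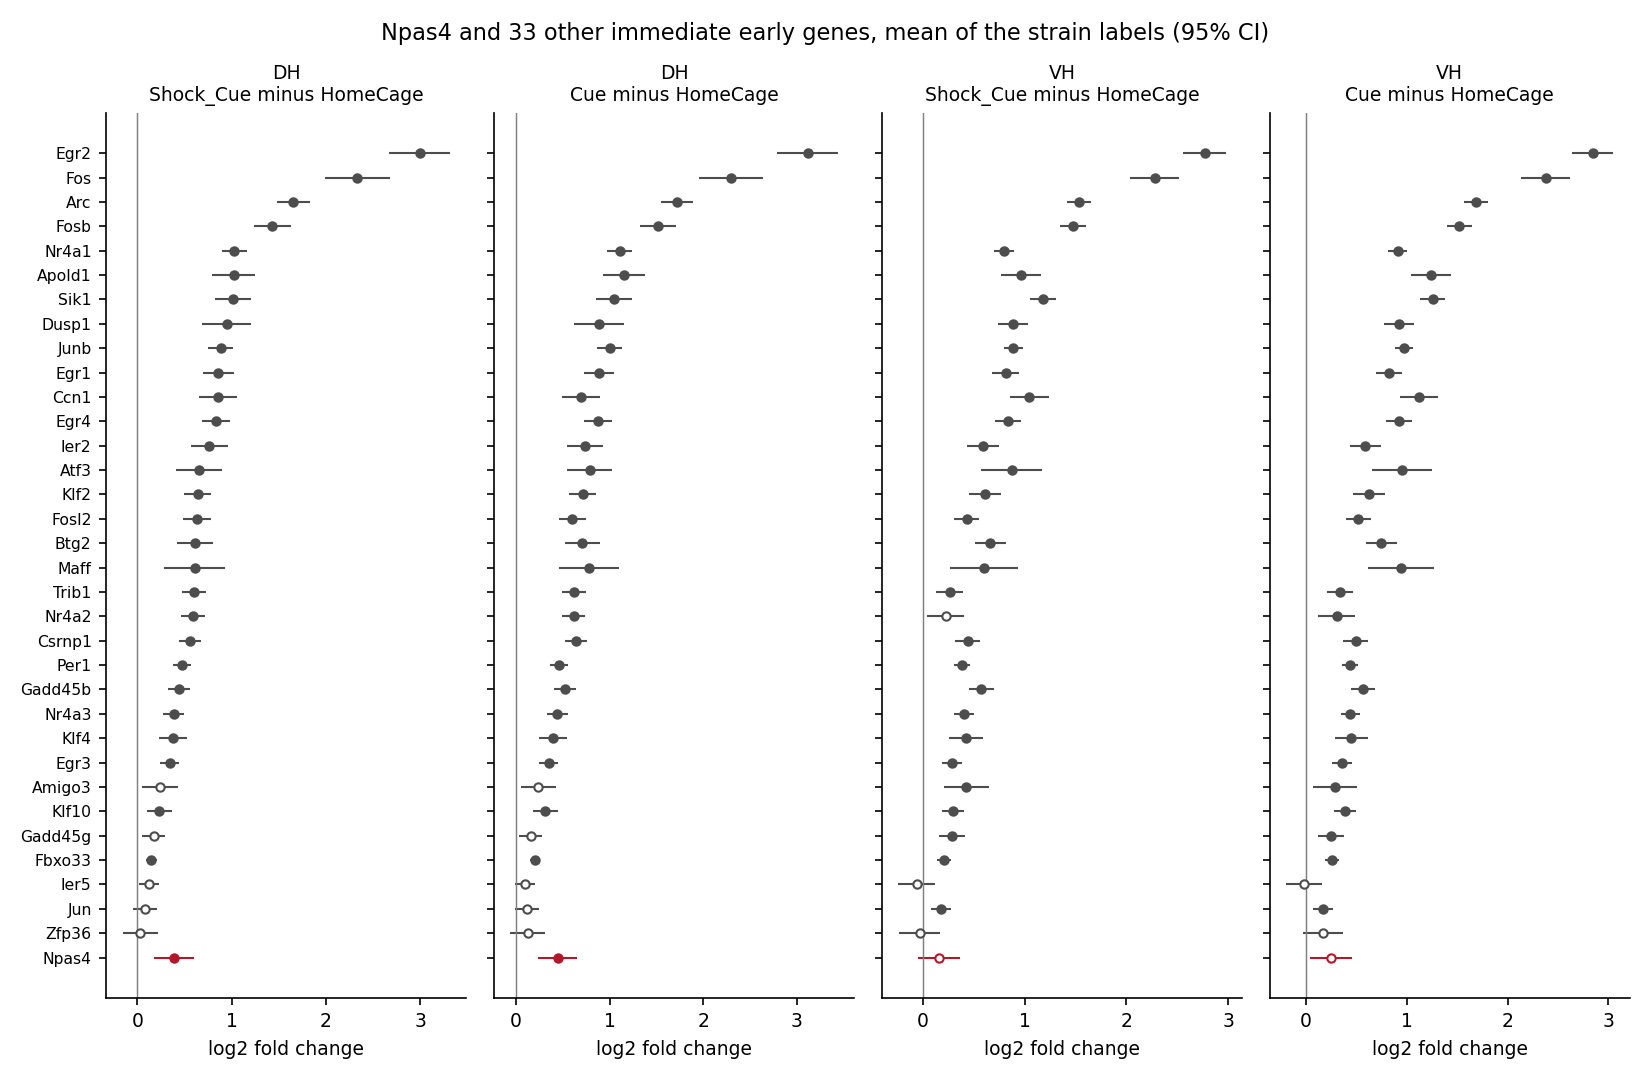
Log2 fold change against the home cage, as the mean of the strain labels, with 95% confidence intervals, of 33 other immediate early genes (grey) and Npas4 (red, bottom row) in DH and VH. Filled points passed an adjusted p of 0.05. The Npas4 intervals lie left of those of Egr2, Fos and Arc in all 4 panels.

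Most immediate early genes had a larger log2 difference from the home cage than Npas4. Their list was chosen with earlier results of these data known. Of the 33 others tested, 28 rose in DH in Shock_Cue and 28 in Cue, and 30 and 31 rose in VH, with none lower, where 5.52%, 7.45%, 9.84% and 16.1% of all genes were called higher and 4.49%, 5.57%, 10.8% and 15.4% lower. Their median log2 difference was 0.61 and 0.69 in DH and 0.59 and 0.59 in VH, against medians over all genes between −0.01 and 0.00. Npas4 ranked 24 of 34 in both DH comparisons, 32 of 34 in VH Shock_Cue and 31 of 34 in VH Cue by the size of the rise. Egr2, a zinc finger transcription factor, rose by 2.99 ± 0.159 in DH Shock_Cue and 2.77 ± 0.102 in VH Shock_Cue. Arc, a regulator of AMPA receptor trafficking, rose by 1.66 ± 0.086 in DH and 1.53 ± 0.058 in VH in the same condition. Zfp36, which destabilises messenger RNAs, and Ier5 did not pass in any of the 4 comparisons; Zfp36 stood at 0.03 ± 0.092 in DH Shock_Cue.

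Per length of exon, Npas4 stood at 4.71 ± 0.648 RPKM in DH Shock_Cue labelled 6NJ and 5.36 ± 0.639 labelled 6J, 5.02 ± 0.485 in DH Cue labelled 6NJ and 5.45 ± 0.935 labelled 6J, and 3.74 ± 0.877 and 3.95 ± 1.13 in DH HomeCage labelled 6NJ and 6J (SD, n = 6 each). In VH it was 4.03 ± 0.476 and 4.13 ± 0.473 RPKM in Shock_Cue, 4.64 ± 0.974 and 3.996 ± 0.518 in Cue, and 3.43 ± 0.533 and 3.83 ± 1.11 in HomeCage, labelled 6NJ and 6J. In the order of the 12 group means, from DH Cue labelled 6J down to VH HomeCage labelled 6NJ, no 2 neighbours differed by more than the larger of their SDs. Between 16 and 21 of the 33 other early genes had a higher mean RPKM in each group. In bulk tissue, fewer active neurons and less Npas4 RNA per active neuron cannot be told apart.

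Npas4 averaged 19.46 ± 4.16 CPM in DH and 16.6 ± 3.17 CPM in VH (SD, n = 36 each). Of the 36 codes, 29 had more Npas4 in the DH library than in the VH library, with the ratio of DH to VH between 0.782 and 1.60. DH exceeded VH in 6 of 6 codes in Shock_Cue under each label, in 4 of 6 labelled 6NJ and 6 of 6 labelled 6J in Cue, and in 4 of 6 labelled 6NJ and 3 of 6 labelled 6J in HomeCage. Over all groups DH minus VH was 0.22 ± 0.060 on the log2 scale, or 1.17-fold (adjusted p = 0.000953, edgeR over 20255 genes), where 32.7% of genes were called higher in DH. Within groups, in the fit without the code, the difference passed in Shock_Cue labelled 6J (0.38 ± 0.146, adjusted p = 0.0472) and Cue labelled 6J (0.45 ± 0.146, adjusted p = 0.0133), by edgeR, where 13.1% and 16.5% of genes were called higher in DH. The first of these was lost in 8 of 12 fits without 1 library, at 0.32 to 0.39 (adjusted p 0.0578 to 0.122), each of Shock_Cue labelled 6J: DH 31A, 31B, 31C and 33A, and VH 31A, 33A, 33B and 33C. The second was lost without DH 34A (0.36, adjusted p = 0.0672) and without the codes of high Lcn2 (0.33, 0.492), by edgeR. With the code as a replicate block, adjusted p under label 6J was 0.000119 in Shock_Cue and 9.27e-06 in Cue, by edgeR. Shock_Cue labelled 6NJ, at 0.23 without the code (adjusted p = 0.263), also passed with the block (adjusted p = 0.0162, edgeR). The labels do not say what the libraries of a code share, so the block is an alternative. In HomeCage, DH minus VH was 0.12 ± 0.149 labelled 6NJ and 0.04 ± 0.148 labelled 6J and did not pass.

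**Figure D4:**
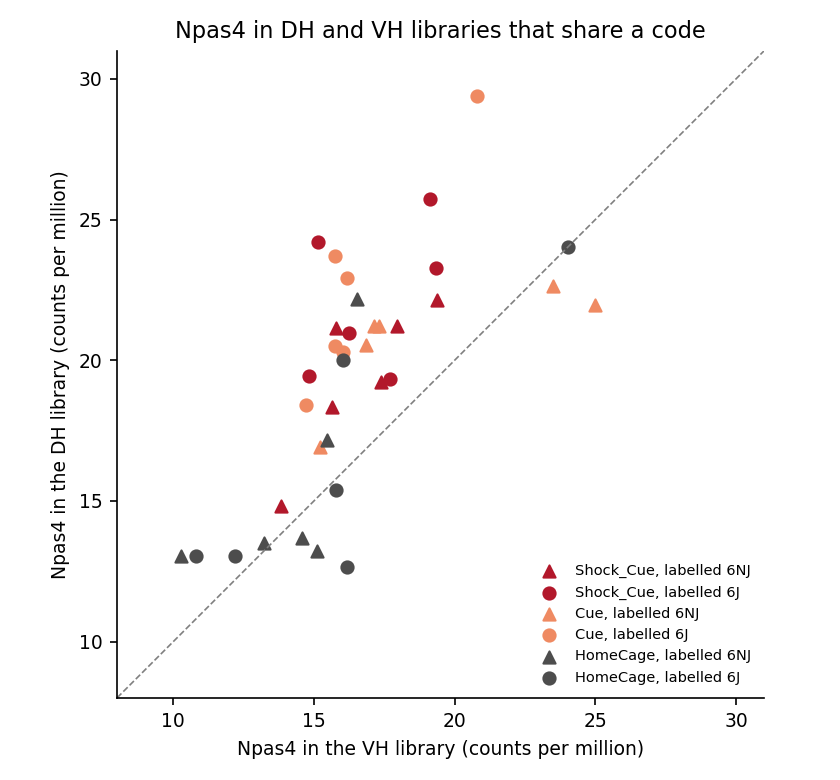
Npas4 in the DH library (vertical axis, CPM) against the VH library of the same code (horizontal axis, CPM) for 36 codes, coloured by condition, with triangles for label 6NJ and circles for label 6J. The dashed line marks equal levels, 29 codes lie above it, and 1 HomeCage code stands at 24.02 CPM in DH and 24.03 CPM in VH.

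Libraries that share a code were high or low together. With each group mean removed, the log2 level in DH and in VH had a Pearson r of 0.721 and a Spearman rho of 0.667 over 36 codes (permutation p = 1e-05 for each, two-sided, the smallest that 100000 resamples can give). Without the 2 codes farthest from the DH median, both HomeCage (35C and 41C), r was 0.638 (permutation p = 4e-05), and without the codes of high Lcn2 it was 0.676 (permutation p = 5e-05). All of these permutations shuffled the codes together and not within groups, and so do not allow for unequal spread among the groups. Within the groups of 6 codes r ran from 0.418 in Shock_Cue labelled 6J to 0.907 in Cue labelled 6J, and it was positive in all 6. Over 19270 genes the median of the same r was 0.163, and 0.664% of genes were above Npas4. Among the 33 other early genes r ran from 0.0428 for Nr4a1 to 0.760 for Btg2, with a median of 0.360 and 2 genes above Npas4, Btg2 and Klf10. The labels do not say what the libraries of a code share.

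With all libraries, the spread of Npas4 was widest in the home cage in 3 of the 4 combinations of region and strain label, and 1 of these rested on a single library. The coefficient of variation of Npas4 was 23.4% and 28.5% in DH HomeCage and 15.5% and 29.1% in VH HomeCage, labelled 6NJ and 6J, against 9.67% to 17.2% in 7 of the other 8 groups. The exception was VH Cue labelled 6NJ, which was more variable than its home cage. Without code 41C, DH HomeCage labelled 6NJ stood at 12.1%, below the 13.8% of DH Shock_Cue labelled 6NJ. Without 35C, the HomeCage values labelled 6J were 20.9% in DH and 17.7% in VH, and without 41A VH HomeCage labelled 6NJ stood at 8.09%. Exposed groups also depended on single libraries: Cue labelled 6J stood at 10.1% in DH and 3.59% in VH without 34A, DH Cue labelled 6NJ at 3.77% without 38B, and DH Shock_Cue labelled 6NJ at 7.69% without 39B. Code 35C, labelled 6J, stood at 24.02 CPM in DH and 24.03 CPM in VH, while codes 35A and 35B of the same number stood at 13.0 and 13.0 CPM in DH and 12.2 and 10.8 CPM in VH. The edgeR biological coefficient of variation was 0.167 in DH and 0.163 in VH, against 0.0994 and 0.0898 for genes of that abundance. Leaving out 35C alone raised the Shock_Cue difference in DH labelled 6J to 0.58 (adjusted p = 0.0243, edgeR), which then passed.

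Of the 10 genes whose deviations followed those of Npas4 most closely, 4 were on the list of early genes: Fos, Dusp1, Btg2 and Nr4a1. Over the 72 libraries with group means removed, r with Npas4 was 0.712 for Fos (0.792 in DH and 0.622 in VH), 0.615 for Dusp1, 0.607 for Btg2, 0.572 for Tob2, 0.561 for Tob1, 0.532 for Nr4a1 and 0.501 for Kcnj2, an inward rectifier potassium channel. Snord14e (0.608), Gm36989 (0.522) and 1700016P03Rik (0.516) complete the 10. No other gene of the 19269 had an r above 0.5, and the median was −0.01. In the home-cage code 35C, Fos was above its group mean by 0.47 in DH and 0.56 in VH on the log2 scale, where Npas4 was above by 0.60 and 0.65. Arc in the same libraries differed from its group mean by 0.12 and −0.08. Over all 72 libraries Arc ranked 11 by its r with Npas4, at 0.493 (0.535 in DH and 0.450 in VH).

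**Figure D5:**
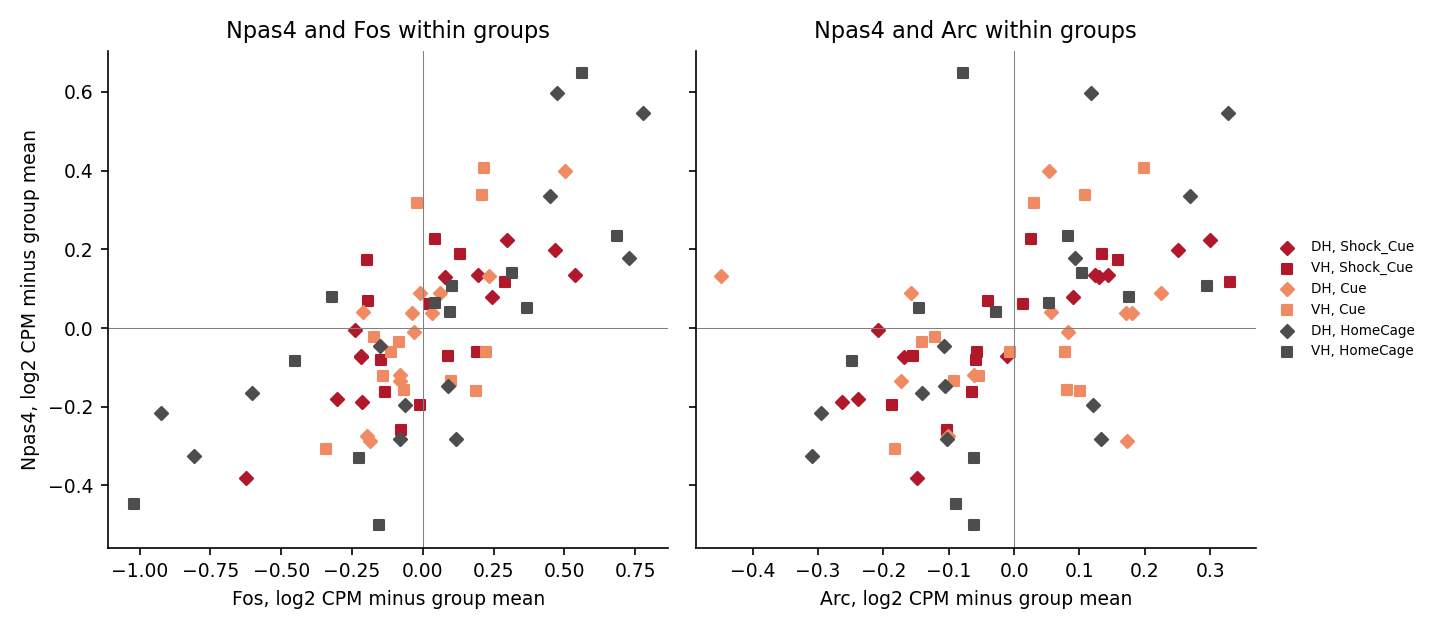
Npas4 (vertical axis) against Fos and Arc (horizontal axes), each as log2 CPM minus the mean of its group, in 72 libraries, with diamonds for DH, squares for VH and colours for condition. Npas4 follows Fos, with r of 0.712, and several HomeCage libraries lie at the ends of that relation. With Arc r was 0.493.

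By the 12 group means, centred on each region, the closest genes were Otud1, a deubiquitinase (r = 0.969), Trib1, a pseudokinase (0.964), Midn (0.961), Csrnp1, a transcription factor (0.957), Thbs1, a secreted matrix protein (0.951), Nr4a1 (0.948), Gm38214 (0.947), Tnfrsf12a, the receptor of TWEAK (0.944), Gxylt1 (0.939) and Gimap1 (0.938). Over these means 3924 of 19269 genes had an r above 0.5. Of the 33 early genes, 16 were among the closest 100, and their median r was 0.892. All 12 points share libraries with the comparisons above, and the values are a description.

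Of the 4 genes of the ARNT group, none passed in DH or in VH Shock_Cue, and Arntl, a partner of the circadian factor CLOCK, rose in VH Cue (0.12 ± 0.044, adjusted p = 0.0411, edgeR). Arnt2, the neuronal partner, stood at −0.04 ± 0.039 in DH Cue and −0.06 ± 0.028 in VH Cue. Of the 13 other bHLH-PAS genes tested, none passed in DH Shock_Cue and 1 rose in DH Cue, Ahr, the dioxin receptor (0.17 ± 0.054, adjusted p = 0.0294). In VH Shock_Cue 1 rose, Ahr, and 2 fell, Epas1 and Npas1, and in VH Cue 4 rose and 3 fell, Epas1, Npas1 and Sim2, by edgeR. In percent of the 13, that is 7.69% higher in DH Cue, 7.69% higher and 15.4% lower in VH Shock_Cue, and 30.8% and 23.1% in VH Cue, where 7.45% of all genes were called higher in DH Cue, 9.84% higher and 10.8% lower in VH Shock_Cue, and 16.1% and 15.4% in VH Cue. The shares in DH Cue and VH Shock_Cue were near those over all genes.

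Of 12 genes listed as reported or candidate targets of Npas4, 4 rose in Shock_Cue and 5 in Cue in DH, and 4 and 8 rose in VH, with none lower. These are 33.3% and 41.7% of the list in DH and 33.3% and 66.7% in VH, beside 5.52% and 7.45% of all genes in DH and 9.84% and 16.1% in VH. In Cue, Bdnf rose by 0.21 ± 0.059 in DH, with an adjusted p of 0.0181, and by 0.19 ± 0.058 in VH, with one of 0.01, and it stood at 0.15 ± 0.059 and 0.13 ± 0.058 in Shock_Cue without passing, by edgeR. Homer1, a postsynaptic scaffold, and Csrnp1, which is also on the list of early genes, rose in all 4 comparisons, as did Mdm2, a ubiquitin ligase. Homer1 rose by 0.55 ± 0.058 in DH Shock_Cue and 0.49 ± 0.039 in VH Shock_Cue. Nptx2, a secreted synaptic pentraxin, rose in VH Cue (0.35 ± 0.079, adjusted p = 0.00133, edgeR) and stood at 0.01 ± 0.067 in DH Shock_Cue. The median of the 12 was 0.05 and 0.15 in DH and 0.15 and 0.20 in VH for Shock_Cue and Cue. This list, too, was chosen with earlier results of these data known.

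Bdnf differed between strain labels where Npas4 did not pass. Over the 3 conditions, 6NJ minus 6J of Bdnf was 0.35 on the log2 scale in DH (adjusted p = 3.51e-06, edgeR), where 8.06% of genes were called higher. It was 0.36 in VH (adjusted p = 1.22e-06, edgeR), where 4.87% were. In DH Cue it averaged 66.5 ± 8.87 CPM labelled 6NJ and 49.5 ± 4.46 CPM labelled 6J (SD, n = 6 each). Bdnf, Nptx2 and Plk2, a kinase of synaptic scaling, were higher in DH than in VH over all groups, by 0.51, 0.62 and 0.48. In that comparison 32.7% of all genes were called higher in DH. Frmpd3, on the same list of targets, went the other way. In HomeCage labelled 6J it averaged 44.5 ± 4.22 CPM in DH and 71.5 ± 6.34 CPM in VH (SD, n = 6 each). Region calls over the whole list are not given here.

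A list of 24 genes covered the calcium route to the Npas4 promoter, from channels and NMDA receptor subunits to kinases and promoter factors. It also held regulators such as Nr3c1, Rest and Hdac3, so it is wider than a calcium route. Of the 24, 1 rose and 2 fell in DH Shock_Cue and 2 rose and 2 fell in DH Cue. In VH 3 rose and 7 fell in Shock_Cue, and 5 rose and 3 fell in Cue. The shares were near those over all genes in DH Shock_Cue (4.17% higher and 8.33% lower, beside 5.52% and 4.49%), DH Cue (8.33% each way, beside 7.45% and 5.57%) and VH Cue (20.8% and 12.5%, beside 16.1% and 15.4%). In VH Shock_Cue 12.5% were higher and 29.2% lower, beside 9.84% and 10.8%. Creb1, which encodes the factor that binds the cAMP response element, rose in all 4, from 0.11 ± 0.031 in DH Shock_Cue (adjusted p = 0.0187) to 0.22 ± 0.033 in VH Cue (adjusted p = 3.92e-06), by edgeR. Grin1, the obligatory NMDA receptor subunit, fell in DH Shock_Cue by 0.21 ± 0.039 (adjusted p = 0.000468, edgeR) and stood at −0.08 ± 0.033 in VH Cue without passing. Cacna1c, the main L-type channel of the hippocampus, did not pass in any of the 4 comparisons.

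Markers of other cells were set beside these results. Of 53 genes in 12 lists of hippocampal, cortical, glial and other markers, those called in DH Shock_Cue were Wfs1 of CA1, which was lower, and Rspo1 and Rorb of neocortex, which were higher. In DH Cue it was Cldn5 of endothelium, which was lower. In VH Shock_Cue Gad1 and Gad2 of interneurons and Aqp4 of astrocytes were higher, and Mpped1 of CA1, Slc17a7 and Rbfox3 of neurons and Ly6c1 of endothelium were lower. In VH Cue 3 of 4 microglial markers, Gad1 and Gad2, and Gja1 and Aqp4 of astrocytes were higher, and Pcp4, Rbfox3, Pvalb, Rorb and Cldn5 were lower. Of the 52 tested, 3.85% were higher and 1.92% lower in DH Shock_Cue, 1.92% lower in DH Cue, 5.77% higher and 7.69% lower in VH Shock_Cue, and 13.5% and 9.62% in VH Cue, each below the share over all genes in the same comparison and direction. Choroid plexus markers had median log2 differences of 0.73 and 0.79 in DH and 0.76 and 0.18 in VH, in Shock_Cue and Cue, without any passing. Within groups, r of Npas4 with the summed markers was between −0.328 (endothelial) and 0.260 (neocortex) over 72 libraries. By region it ran from −0.341 (microglia) to 0.382 (choroid plexus) in DH and from −0.432 (endothelial) to 0.204 (neocortex) in VH, over 36 libraries each. The part of these markers in the Npas4 results was not tested, beyond the fits with a choroid plexus term in the closing section.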

How the data were processed

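Bulk messenger RNA was measured in 72 libraries of 12 groups of 6. The submitters' processing notes name FastQC, HISAT2, featureCounts, kallisto, DESeq2 and GRCm38. No versions and no strand setting of the counting are given there. The gene table holds raw counts deposited by the authors, and the transcript table holds estimated counts from kallisto deposited by the authors, which were rounded for the test.

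From these, edgeR 4.0.16 (R 4.3.3) was fitted to each region's 36 libraries by group, and to all 72 for DH against VH, with TMM scaling, filterByExpr, the robust quasi-likelihood F test and Benjamini-Hochberg adjustment over all genes or transcripts tested at 0.05. Errors after ± are standard errors for log2 differences and SDs for levels, and intervals are 95% and unadjusted. Gene CPM divides a count by the library total over the tested genes, adjusted by the TMM factor of the fit to all 72 libraries. Log2 CPM has a prior count of 2. DESeq2 1.42.0 and limma 3.58.1 gave alternatives. The scripts were tested on simulated data. No sample column was left unused (0).

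Genes could be named if they were Npas4, members of the lists used here, or the 10 genes most like it by each measure. The members and lists were chosen with earlier results of these data known. The test of transcript shares was chosen after the values were seen. All pairs of libraries within a group differed by more than sampling noise (lowest chi-square per degree of freedom 3.43 over 180 pairs).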

Additional observations from a re-analysis of the deposited data

Results flagged for a closer look

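In 3 of 48 groups tested, 1 library lay far from the other 5, with a gap over the range above 0.625, and chance flags about 1 group in 20. The lowest DH Cue library labelled 6NJ had Npas4 at 16.9 CPM, and the nearest stood at 20.5 CPM. The highest VH Cue library labelled 6J had Npas4 at 20.8 CPM, and the nearest stood at 16.2 CPM. The highest VH HomeCage library labelled 6J had Npas4-202 at 7.58 CPM, and the nearest stood at 3.15 CPM.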

How the results depend on the processing

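Values are log2 differences of Npas4 with edgeR's adjusted p unless another tool is named. Scaling by RLE size factors kept all 42 differences on their side of the threshold and in their direction. Without the 6 codes of high Lcn2, 31 of 42 were kept, and the cause was not tested. The calls lost were Cue minus HomeCage in DH over both labels (0.26, adjusted p = 0.304), Shock_Cue minus HomeCage in DH over both labels (0.31, 0.0608) and DH minus VH in Cue labelled 6J (0.33, 0.492). The direction turned, with none passing, for Shock_Cue minus Cue in DH over both labels (0.051) and labelled 6J (0.20), for Shock_Cue minus HomeCage and Cue minus HomeCage in VH labelled 6J (−0.080 and −0.22), for 6NJ minus 6J in DH Cue (0.10) and over VH (−0.019), and for the label difference of the DH response to Shock_Cue (0.037) and Cue (0.33). Cue minus HomeCage in DH labelled 6J passed with DESeq2 (0.47, 0.0196), with a choroid plexus term (0.44, 0.0492), with limma-voom and the code number as a random effect (0.50, 0.0168) and with a mean CPM of at least 1 (0.47, 0.045). Its lowest value over the 9 alternative fits was 0.099, without the codes of high Lcn2, and its adjusted p reached 0.952 by edgeR. With that limma-voom fit Cue minus HomeCage in DH labelled 6NJ (0.45, 0.0471), Shock_Cue minus HomeCage in DH labelled 6J (0.47, 0.0448) and Cue minus HomeCage in VH over both labels (0.25, 0.0363) passed, the last also with DESeq2 (0.25, 0.0416). In the limma-voom fit the correlation within code numbers was −0.036 in DH and −0.030 in VH. Code numbers lie within groups, so a negative value narrows the errors of these comparisons. Cue minus HomeCage in VH labelled 6NJ was lost with a choroid plexus term (0.41, 0.0652), with no filter (0.43, 0.109) and with only the groups compared (0.43, 0.0748). DH minus VH in Shock_Cue labelled 6J was lost with no filter (0.38, 0.0951) and without the DH library of code 40A (0.37, 0.0549).

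In the gene counts, the Npas4-201 differences of Shock_Cue minus Cue turned to −0.027 (DH labelled 6J), −0.088 (DH labelled 6NJ), −0.058 (DH over both labels), −0.061 (DH label difference) and −0.084 (VH over both labels), the label difference of the DH Shock_Cue response turned to −0.10, and 6NJ minus 6J over VH, at −0.12 for Npas4-201, turned to 0.0077.

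Leaving out 1 library at a time gave 864 values, of which 800 kept direction and call. Against HomeCage the ranges were 0.37 to 0.58 (DH labelled 6J) and −0.24 to 0.030 (DH label difference) and −0.041 to 0.21 (VH label difference) for Shock_Cue, and 0.37 to 0.61 (DH labelled 6J), 0.38 to 0.56 (DH labelled 6NJ), −0.18 to 0.091 (DH label difference), −0.025 to 0.22 (VH labelled 6J), 0.20 to 0.32 (VH over both labels) and 0.34 to 0.49 (VH labelled 6NJ) for Cue. For Shock_Cue minus Cue they were −0.079 to 0.065 (DH labelled 6J), −0.15 to 0.00485 (DH label difference) and −0.026 to 0.063 (DH minus VH). For 6NJ minus 6J they were −0.21 to 0.062 (DH HomeCage), −0.24 to 0.00614 (VH HomeCage), −0.084 to 0.015 (VH Shock_Cue) and −0.022 to 0.061 (VH over conditions). For DH minus VH they were 0.32 to 0.42 (Shock_Cue labelled 6J), 0.36 to 0.52 (Cue labelled 6J), −0.099 to 0.20 (HomeCage labelled 6J) and −0.014 to 0.17 (HomeCage labelled 6NJ).

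With the code as a replicate block, 9 of 10 differences between regions kept their call, and DH minus VH in Shock_Cue labelled 6NJ passed (0.22, adjusted p = 0.0162, edgeR), with DH higher in 6 of 6 codes. Under label 6J the blocked values were 0.38 in Shock_Cue (0.000119) and 0.44 in Cue (9.27e-06). Over genes, the residuals of libraries that share a code had a median r of 0.111, beside −0.00437 for other codes. Of the 36 codes, 21 were above 0.1 and 9 were best matched to their own code. The block is given as an alternative because the labels do not say what the libraries of a code share. At 301 to 1086 counts per library, the spread between libraries limits these values more than counting does.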
